A study of Rattus norvegicus with 15 samples.

Results

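Interferon-stimulated genes were followed through the synovium of rats with adjuvant-induced arthritis as a list of 38 gene symbols, taken from a table of 23342. All 38 were present, and 37 had enough reads to be tested; Ifit1 was not, with at most 18 reads in any library. The rule lists gene names and uses no measured value, but the list was proposed with earlier results of these data known. Whole synovium, which lines joints, gave 15 RNA-seq libraries from rats of genotype WT, with 5 libraries in each of 3 groups. The control group (CON in the labels) had no treatment at all. The AIA group had received 100 uL of complete Freund's adjuvant, an oil with killed mycobacteria, into the skin of the tail, which starts an immune arthritis in rats. The antibody group (Ab) was made arthritic in the same way and also received weekly repeated intraperitoneal doses of an anti-cANGPTL4 antibody. No isotype or vehicle control is named, so what the antibody binds and the giving of an antibody as such cannot be told apart. Strain, sex, age and the day of sampling are not given in the labels. The title of antibody replicate 21_8 carries a pair of numbers, and each library is taken as 1 rat.

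Interferons are cytokines of antiviral defence. Type I interferons (alpha and beta) signal through IFNAR1 and IFNAR2 to a complex that holds STAT2 and IRF9 and binds the interferon-stimulated response element (ISRE). Type II interferon, or interferon gamma, is made mainly by T and NK cells and acts through IFNGR1 and IFNGR2 on genes with a gamma-activated site (GAS). Many genes, Irf1 and the guanylate-binding proteins among them, answer to both, and raised interferon-stimulated transcripts are well known from rheumatoid arthritis in people.

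Letters of these elements occur in many member promoters, and stretches from members called below are shown so that their letters can be read beside the values. No test here ties a motif to a call. RefSeq (GRCr8) gave a promoter window of 300 bases, from 250 before to 50 after the gene start, for 30 of the 38 members. Isg15, Ifit1, Ifit2, Mx2, Dhx58, Usp18, Zbp1 and Adar had none. Both strands were searched for the ISRE core GAAANNGAAA and for the GAS letters TTCNNNGAA, which read the same on both strands. The ISRE core occurred in 18 of the 30 member windows (60%) and in 3.92% of all 33469 windows. The GAS letters occurred in 6 of 30 (20%) and in 8.87% of all windows. Of the 12 windows of members called in at least 1 comparison, 9 held the ISRE core and 4 the GAS letters. Of the 18 windows of members called in none, 9 and 2 did. A match describes letters only and is not a measured binding site. For called members with a match, the stretch of the window around it follows, 5′ to 3′ on the strand of the gene, with matches of either motif in capitals.
Irf1 (GRCr8 chr10:38417758-38417836, plus strand): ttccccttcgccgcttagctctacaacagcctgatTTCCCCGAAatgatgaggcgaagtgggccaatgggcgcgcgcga
Gbp2 (GRCr8 chr2:234005661-234005740, plus strand): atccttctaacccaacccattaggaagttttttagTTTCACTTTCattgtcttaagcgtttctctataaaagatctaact
Gbp5 (GRCr8 chr2:233910908-233910987, plus strand): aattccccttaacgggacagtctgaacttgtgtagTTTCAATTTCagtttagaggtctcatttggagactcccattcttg
Nmi (GRCr8 chr3:56848599-56848678, minus strand): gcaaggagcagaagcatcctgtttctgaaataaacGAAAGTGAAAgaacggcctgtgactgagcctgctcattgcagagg
Bst2 (GRCr8 chr16:18255048-18255139, minus strand): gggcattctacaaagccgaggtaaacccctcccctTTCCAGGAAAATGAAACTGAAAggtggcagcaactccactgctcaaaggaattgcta
Parp14 (GRCr8 chr11:78408012-78408102, plus strand): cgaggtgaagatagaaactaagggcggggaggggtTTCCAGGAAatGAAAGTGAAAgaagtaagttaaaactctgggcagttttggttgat
Ifi27 (GRCr8 chr6:128355108-128355272, plus strand): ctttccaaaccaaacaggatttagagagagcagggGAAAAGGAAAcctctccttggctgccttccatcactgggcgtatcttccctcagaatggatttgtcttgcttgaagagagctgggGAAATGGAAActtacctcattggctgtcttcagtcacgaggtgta
Rsad2 (GRCr8 chr6:48788223-48788302, minus strand): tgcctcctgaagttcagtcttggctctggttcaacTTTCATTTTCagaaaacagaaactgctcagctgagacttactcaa
Samhd1 (GRCr8 chr3:166214520-166214598, minus strand): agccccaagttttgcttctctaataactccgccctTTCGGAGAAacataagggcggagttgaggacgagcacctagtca
Ifih1 (GRCr8 chr3:67683983-67684062, minus strand): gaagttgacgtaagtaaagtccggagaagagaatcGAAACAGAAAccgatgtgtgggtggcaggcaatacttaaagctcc
Xaf1 (GRCr8 chr10:57415889-57415968, plus strand): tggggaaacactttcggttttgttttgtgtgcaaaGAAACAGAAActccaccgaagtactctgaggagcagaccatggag
The capitals are a GAS match alone in Irf1 and Samhd1 and both motifs in Bst2 and Parp14. In Bst2 the GAS letters overlap the ISRE core, and a second ISRE core overlaps the first. In Parp14 the GAS match ends 2 bases before the ISRE core. The remaining stretches hold ISRE cores only, and Ifi27 has 2 of them. In Gbp2, Gbp5 and Rsad2 the element lies on the opposite strand, so its reverse complement is in capitals. Parp9 was called and has neither motif in its window, but the window of its neighbour Dtx3l has an ISRE core at 11 to 20 bases after the start. For comparison, the same element in 3 members that edgeR called in no comparison follows; DESeq2 called Isg20 in antibody against AIA.
Isg20 (GRCr8 chr1:142239932-142240011, plus strand): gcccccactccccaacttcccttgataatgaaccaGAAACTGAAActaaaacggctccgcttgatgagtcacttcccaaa
Ifit3 (GRCr8 chr1:241527247-241527326, plus strand): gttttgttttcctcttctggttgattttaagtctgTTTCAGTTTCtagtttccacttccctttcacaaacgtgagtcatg
Irf7 (GRCr8 chr1:205800048-205800127, minus strand): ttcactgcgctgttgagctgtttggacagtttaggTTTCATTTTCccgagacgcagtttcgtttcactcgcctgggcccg

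**Figure D1:**
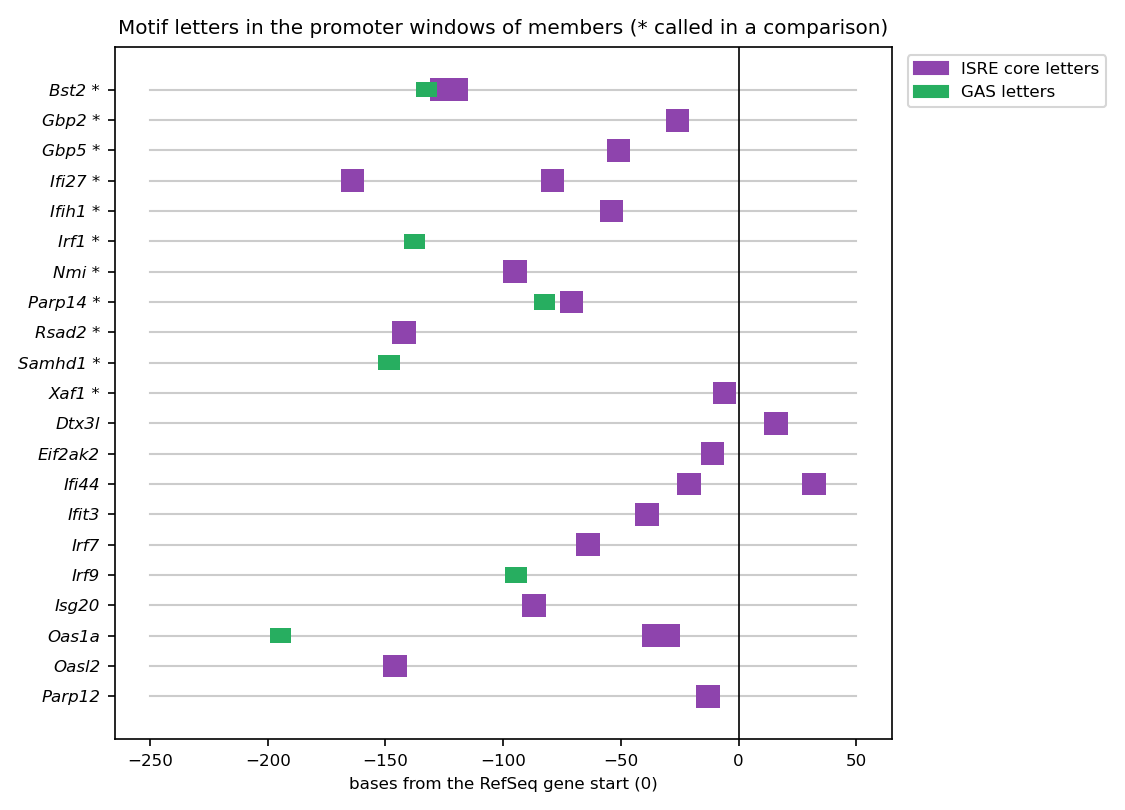
Positions of the ISRE core (purple) and GAS letters (green) in the promoter windows of the 21 members with a match, in bases from the RefSeq gene start; grey lines span the window and asterisks mark members called in a comparison. Apart from 1 match each in Ifi44 and Dtx3l, the matches lie before the gene start.

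The tissue had the transcripts that define synovium, with Prg4, the lubricin gene of lining fibroblasts, at a mean of 1885 FPKM in control. FPKM are reads scaled by gene length and library total, so they can be compared between genes. Totals were 31172215 to 34084345 reads per library. Skeletal muscle transcripts stood apart in control replicate 2 and AIA replicate 19. Angptl4, the gene of the antibody's target, was at 73.6 ± 18.1 FPKM in control, 112 ± 60.8 in AIA and 147 ± 40.3 under the antibody (mean ± SD, n = 5), with no comparison called by edgeR (adjusted p = 0.25, 0.532 and 0.0601 for AIA against control, antibody against AIA and antibody against control). Since whole tissue was sequenced, fewer cells of a type and less RNA per cell cannot be told apart.

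Interferon-stimulated transcripts were expressed in every group, also in untreated synovium. Over the 15 libraries the mean level ran from 333 FPKM for Ifi27, a small mitochondrial protein gene, and 122 for Bst2 (tetherin, which holds budding viruses at the cell surface) down to 0.399 for Zbp1, the lowest tested member. Next after Bst2 came Gbp2 (32.5) and Irf1 (32.1), whose levels lay within their spread. In reads, Ifit1 had 4 in 1 control library and none in the other four, 5 to 18 in AIA and 0 to 9 under the antibody.

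In AIA against control, the interferon-stimulated genes as a list did not stand out. With edgeR's quasi-likelihood test and Benjamini-Hochberg adjustment over all genes, 1 of 37 members was higher (Samhd1) and 1 lower (Ifih1). Over all 16046 tested genes, 8.54% were called, 5.09% higher and 3.45% lower, so the members' 2.7% in each direction was no larger than the background. The median log2 fold change was -0.05 over the members and -0.003 over all tested genes, and 17 members had a positive value. At an unadjusted p under 0.05, 6 were higher and 2 lower. Here and below, no share over all genes was computed at that threshold. DESeq2 called 3 higher (Samhd1, Parp9 and Gbp2) and 1 lower (Ifih1), and over all genes 1140 higher and 738 lower. The Samhd1 call was lost when control replicate 2, 11 or 14, or AIA replicate 18 or 19 was left out.

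In the antibody group against AIA, most fitted values of the list were positive and few passed the test. Of 37 members, 3 were called higher (Gbp5, Xaf1 and Nmi), against 1.83% of all tested genes (5.83% in either direction). None was called lower by edgeR or DESeq2, while edgeR called 3.99% of all tested genes lower. None had an unadjusted p under 0.05 in that direction. The log2 fold change was positive in 34 of 37, with a median of 0.27, while the median over all genes was -2.97e-05. At an unadjusted p under 0.05, 16 were higher. DESeq2 called 7 higher (Irf1, Isg20, Ifih1, Gbp5, Xaf1, Cmpk2 and Nmi), and over all genes 659 higher, against 294 with edgeR. The count rests on single AIA and antibody libraries. Without AIA replicate 13 it was 12, and without AIA replicate 5 it was 5. It was 0 without AIA replicate 18, antibody replicate 10 or antibody replicate 21_8, and 1 without AIA replicate 19 or 23. In those runs the count over all genes also moved, from 294 to between 48 and 754.

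In the antibody group against control, 10 of 37 members were called higher, or 27%, against 3.38% of all tested genes (8.05% in either direction). These were Irf1, Rsad2, Bst2, Parp9, Parp14, Gbp2, Gbp5, Samhd1, Ifi27 and Nmi. None was called lower by edgeR or DESeq2, while edgeR called 4.66% of all genes lower. None had an unadjusted p under 0.05 in that direction. The log2 fold change was positive in 35 of 37, with a median of 0.24 against 0.003 over all genes. At an unadjusted p under 0.05, 15 were higher. DESeq2 called 11, adding Dtx3l to these 10, and over all genes 911 higher, against 543 with edgeR. The antibody libraries lay above all control libraries in 7 members (18.9%) and in 4.26% of all genes on the log2 CPM scale. Of the 10 calls, those of Irf1 and Gbp2 held in each of the 10 runs that left out 1 library. The count was 2 without control replicate 2 or antibody replicate 21_8, 4 without control replicate 14 or antibody replicate 10, 5 without antibody replicate 3 or 9 and 6 without control replicate 7. The 3 comparisons share libraries pairwise, so their values are given side by side and not as independent results.

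**Figure D2:**
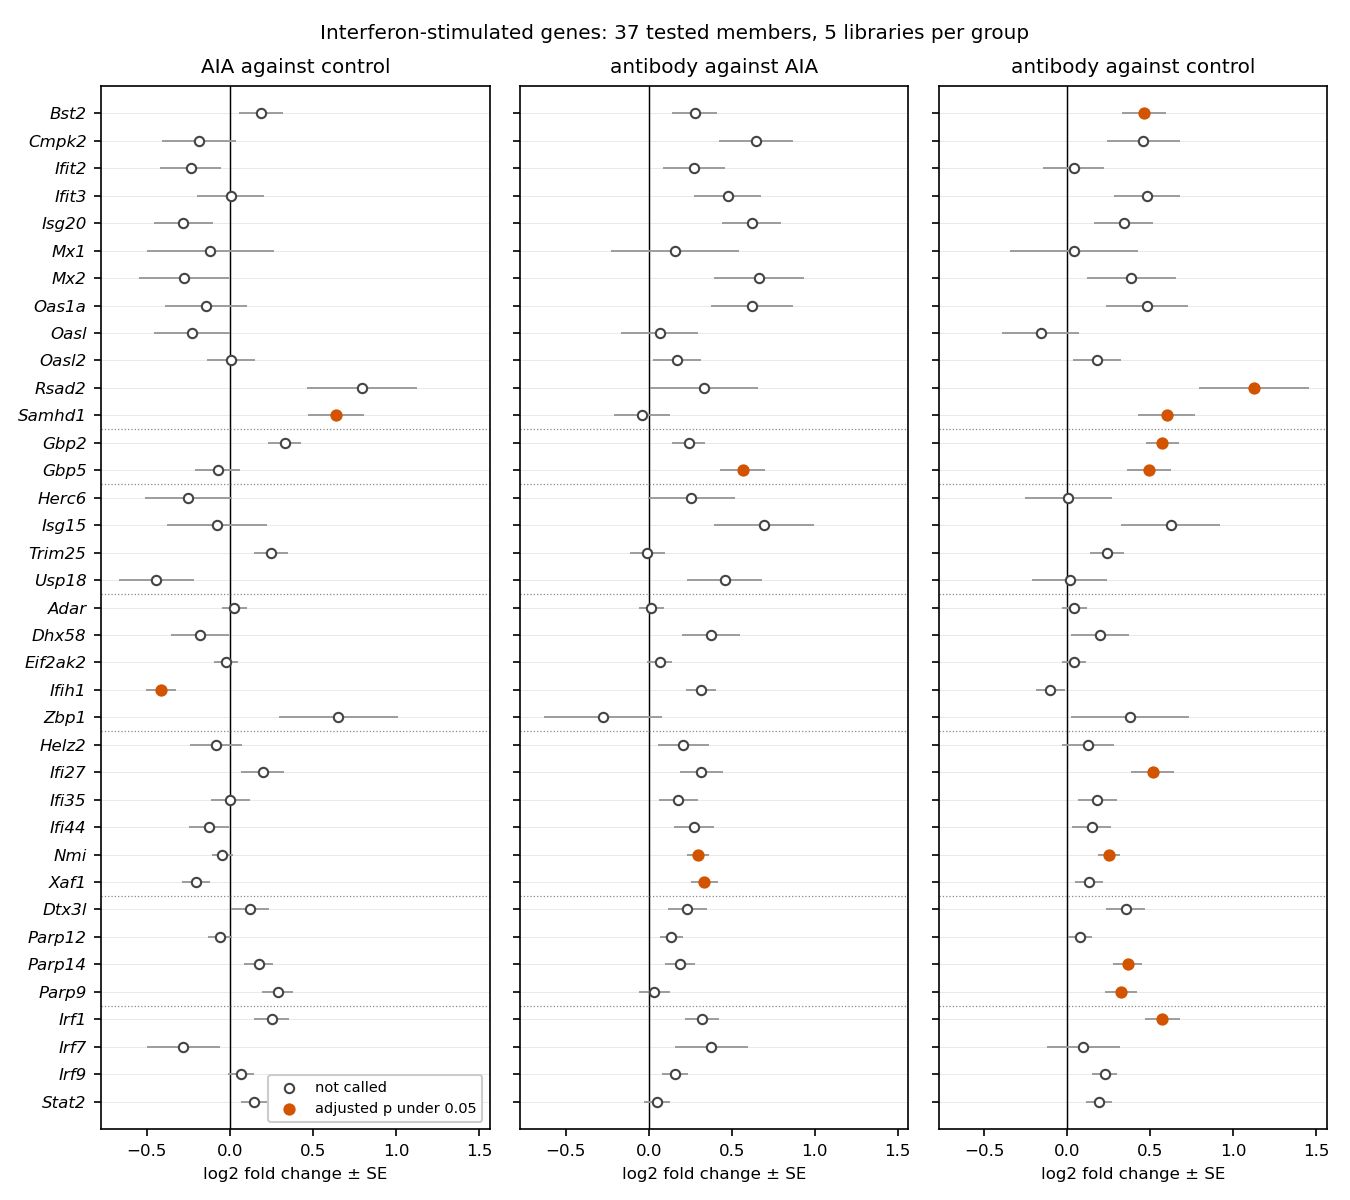
Log2 fold change with SE of the 37 tested members in the 3 comparisons, grouped by role with dotted lines; filled points passed an adjusted p under 0.05 in edgeR. Most members sit right of 0 in both comparisons of the antibody group (34 and 35 of 37) and on both sides of 0 in AIA against control (17 of 37 positive).

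Among the 4 transcription factors, edgeR called Irf1, in antibody against control, and none of the other three. IRF1 drives many interferon gamma targets, including antigen-presentation genes. Irf1 measured 23, 30.7, 29.9, 21.5 and 27.6 FPKM in control replicates 2, 7, 11, 14 and 17. AIA replicates 5, 13, 18, 19 and 23 gave 27.6, 34.5, 28.3, 31.8 and 31.8 FPKM. Antibody replicates 3, 9, 10, 12 and 21_8 gave 45.7, 37.6, 36.3, 34.5 and 40.5 FPKM. The antibody libraries were all above control, while AIA overlapped with control and met the lowest antibody library at 34.5. Irf1 was 1.49-fold higher in the antibody group than in control (log2 fold change 0.57 ± 0.10 SE, edgeR adjusted p = 0.00426, and 0.00464 to 0.0161 with 1 library left out). It was at 0.25 ± 0.10 in AIA against control (adjusted p = 0.171) and 0.32 ± 0.10 in antibody against AIA (adjusted p = 0.0772, called by DESeq2). Stat2 and Irf9, of the type I complex, were at 0.19 ± 0.08 and 0.22 ± 0.08 in antibody against control (adjusted p = 0.146 and 0.0923). Irf7, which amplifies type I interferon production, varied widely within the groups, from 17.2 to 39.4 FPKM in control and from 11.8 to 32.7 in AIA, and only from 27.3 to 31.6 in the antibody group. No comparison of Irf7 was called (adjusted p = 0.533, 0.328 and 0.838).

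Both guanylate-binding proteins, GTPases that act on vacuoles of intracellular microbes and are strong interferon gamma targets, were higher in the antibody group than in control. Gbp2 measured 22, 29, 23.8, 24.5 and 32.6 FPKM in control and 29, 33, 35.8, 34.3 and 29.5 in AIA. In the antibody group it measured 47.3, 38.1, 36.9, 35 and 36.1. Antibody libraries and control did not overlap, while AIA shared its lower end with control. Gbp2 was 1.49-fold higher in antibody against control (0.57 ± 0.10, edgeR adjusted p = 0.00315, and 0.00304 to 0.012 with 1 library left out). In AIA against control it was at 0.33 ± 0.10 (adjusted p = 0.052; called by DESeq2), and in antibody against AIA at 0.24 ± 0.10 (adjusted p = 0.152). Gbp5 had a different order. Its levels were 5.73, 7.67, 8.78, 8.04 and 9.03 FPKM in control, 7.32, 7, 8.25, 8.36 and 5.6 in AIA and 14.1, 10.7, 10.4, 9.7 and 9.73 under the antibody. Control and AIA covered the same range, and all 5 antibody libraries were above both. Gbp5 was 1.48-fold higher in antibody against AIA (0.57 ± 0.13, adjusted p = 0.0276) and 1.41-fold higher in antibody against control (0.49 ± 0.13, adjusted p = 0.0352), and was at -0.08 ± 0.13 in AIA against control. With 1 library left out, the first of these calls was lost in 4 and the second in 7 of 10 runs.

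The antiviral effectors, proteins that block steps of viral replication, mostly stayed uncalled, and 3 of 12 tested were higher in antibody against control. Rsad2 (viperin, a radical SAM enzyme that makes a chain-terminating nucleotide) measured 0.629, 2.72, 1.43, 2.26 and 2.2 FPKM in control. It measured 2.92, 4.99, 2.39, 3.6 and 1.69 in AIA and 4.84, 4.06, 3.6, 2.72 and 4.64 under the antibody. Control replicate 2 was the lowest, and control replicate 7 and antibody replicate 12 met at 2.72. Rsad2 had the largest fold among called members, 2.18-fold in antibody against control (1.13 ± 0.33, edgeR adjusted p = 0.0489), and the call was lost in 8 of 10 runs with 1 library left out. Bst2 measured 93.3, 117, 120, 92.9 and 105 FPKM in control, 97.2, 157, 113, 114 and 106 in AIA and 139, 132, 140, 137 and 171 under the antibody. Apart from AIA replicate 13, every AIA library lay within the control range and below all antibody libraries. Bst2 was 1.38-fold higher in antibody against control (0.46 ± 0.13, adjusted p = 0.044), with the call lost in 9 of 10 runs with 1 library left out.

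Samhd1, a hydrolase that depletes the cell's deoxynucleotides, was called in both comparisons with control. It measured 3.22, 5.02, 2.82, 2.75 and 5.03 FPKM in control, 5.94, 4.96, 5.56, 6.85 and 5.14 in AIA and 6.11, 7.39, 5.3, 4.61 and 4.57 under the antibody. Control replicates 7 and 17 reached the lower AIA and antibody libraries. Samhd1 was 1.56-fold higher in AIA against control (0.64 ± 0.17, edgeR adjusted p = 0.0293) and 1.51-fold higher in antibody against control (0.60 ± 0.17, adjusted p = 0.042). Antibody against AIA was at -0.04 ± 0.17 (adjusted p = 0.924). The call in antibody against control was lost in 7 of 10 runs with 1 library left out.

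Of the antiviral effectors, the other 9 tested were called in no comparison by edgeR, and neither was Isg15; DESeq2 called Isg20 and Cmpk2 in antibody against AIA. Mx1, a dynamin-like GTPase that blocks viral nucleocapsids, measured 3.9, 12.5, 4.6, 4.15 and 3.91 FPKM in control, 2.91, 11.3, 4.71, 4.05 and 2.85 in AIA and 5.41, 7.57, 5.64, 5.02 and 5.63 under the antibody. Control replicate 7 and AIA replicate 13 were above every other library and the other 8 were below all antibody libraries. Its log2 fold changes were -0.12 ± 0.38, 0.16 ± 0.38 and 0.04 ± 0.38 in AIA against control, antibody against AIA and antibody against control. Isg15, the ubiquitin-like modifier, measured 10.7, 26.4, 14.4, 15.6 and 14.8 FPKM in control, 9.56, 27, 15.9, 14.1 and 8.95 in AIA and 26.1, 20.1, 20.1, 20.7 and 36.6 under the antibody. The same 2 libraries were the highest of their groups and overlapped with the antibody group. Isg15 was at 0.70 ± 0.30 in antibody against AIA (edgeR adjusted p = 0.176) and 0.62 ± 0.30 in antibody against control (adjusted p = 0.224). Mx2, the 2',5'-oligoadenylate synthetase Oas1a, which starts RNA decay, and the mitochondrial kinase Cmpk2 were at 0.66 ± 0.27, 0.62 ± 0.25 and 0.64 ± 0.22 in antibody against AIA (edgeR adjusted p = 0.151, 0.14 and 0.0931), and DESeq2 called Cmpk2 (adjusted p = 0.0461). Isg20, an exonuclease, was at 0.62 ± 0.18 there (adjusted p = 0.0531, called by DESeq2), with 1.24, 1.4, 1.5, 1.13 and 1.72 FPKM in control, 1.51, 1.37, 0.969, 1.1 and 0.675 in AIA and 1.6, 1.93, 1.99, 1.65 and 1.54 under the antibody. The antibody libraries all exceeded AIA and overlapped with control. Ifit2, Ifit3, Oasl and Oasl2, which bind foreign RNA or signal its presence, had log2 fold changes from -0.24 to 0.48 over the 3 comparisons, none called.

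Among the sensors of foreign nucleic acid, Ifih1 was lower in AIA. IFIH1 (MDA5) detects long double-stranded RNA. It measured 4.07, 4.07, 4.81, 3.86 and 4.52 FPKM in control, 3.34, 3.27, 3.04, 3.22 and 2.8 in AIA and 4.3, 3.83, 3.2, 4.1 and 4.23 under the antibody. All AIA libraries were below all control libraries, and 4 of the 5 antibody libraries were above all AIA libraries. Ifih1 was 1.33-fold lower in AIA against control (-0.42 ± 0.09, edgeR adjusted p = 0.01), a call kept in 10 of 10 runs with 1 library left out (adjusted p 0.0112 to 0.0292). Antibody against AIA was at 0.31 ± 0.09 (adjusted p = 0.0517, called by DESeq2), and antibody against control at -0.10 ± 0.09 (adjusted p = 0.533). Dhx58 (LGP2), a partner of MDA5, was at -0.18 ± 0.17, 0.38 ± 0.17 and 0.20 ± 0.17 in the same order, and Zbp1, a sensor of Z-form nucleic acid, at 0.65 ± 0.36, -0.28 ± 0.35 and 0.38 ± 0.36. The kinase Eif2ak2 (PKR) and the RNA-editing enzyme Adar had log2 fold changes from -0.02 to 0.07 and from 0.02 to 0.04, none called.

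Of the PARP family, Parp9 and Parp14 were higher in antibody against control. PARP14 is an ADP-ribosyltransferase, and PARP9 works in a complex with the ubiquitin ligase DTX3L. Parp14 measured 12.8, 17.4, 13.9, 12.9 and 15.9 FPKM in control, 15.8, 16.2, 17, 16.5 and 15 in AIA and 22.5, 19.4, 16.2, 16.5 and 18.2 under the antibody. In FPKM, control replicate 17 lay in the AIA range and replicate 7 above it, and antibody replicate 3 was the highest library. On the log2 CPM scale, control replicate 17 (6.713) was below all AIA libraries (6.761 to 6.926) and replicate 7 (6.878) within their range. Parp14 was 1.29-fold higher in antibody against control (0.36 ± 0.09, edgeR adjusted p = 0.0193, lost in 3 of 10 runs with 1 library left out) and was not called in AIA against control (0.17 ± 0.09, adjusted p = 0.275). Parp9 measured 9.5, 11.2, 9.51, 9.67 and 13 FPKM in control, 11.7, 13.7, 13.1, 12.6 and 11.8 in AIA and 16.4, 13.3, 11.5, 11.8 and 12.3 under the antibody. It was at 0.29 ± 0.09 in AIA against control (adjusted p = 0.0751, called by DESeq2) and 0.32 ± 0.09 in antibody against control (adjusted p = 0.0477, lost in 8 of 10 runs with 1 library left out). Dtx3l was at 0.35 ± 0.12 in antibody against control (adjusted p = 0.0795), and antibody replicate 3 was its highest library too, at 14.2 FPKM. Parp9 and Dtx3l overlap in RefSeq, and with strandedness not stated their reads may be mixed where they overlap. Parp12 was not called. In the group of ISG15 conjugation (Isg15, its protease Usp18, the ligases Herc6 and Trim25), 0 of 4 members were called in any comparison by edgeR or DESeq2. At an unadjusted p under 0.05, 1 was higher in each comparison and 0 lower.

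Nmi, Xaf1 and Ifi27 complete the called members. Nmi, which binds the interferon-induced protein IFI35, measured 16.9, 18.8, 19.6, 19.8 and 19.9 FPKM in control, 19.2, 17.8, 17.1, 17.8 and 18.6 in AIA and 23.7, 21.7, 21.1, 23.5 and 22 under the antibody. All 5 antibody libraries were above the other 10. Nmi was 1.23-fold higher in antibody against AIA (0.30 ± 0.06, edgeR adjusted p = 0.0209) and 1.19-fold higher in antibody against control (0.25 ± 0.06, adjusted p = 0.0268), with the calls lost in 4 and 5 of 10 runs with 1 library left out. Xaf1, a pro-apoptotic antagonist of XIAP, was lowest in AIA, with 10.7, 13.9, 12.9, 11 and 13.9 FPKM in control, 9.48, 11.1, 11.7, 10.1 and 10.4 in AIA and 13.6, 13.7, 12.4, 13.4 and 14.3 under the antibody. Antibody libraries lay above all AIA libraries and within or just above the control range. Xaf1 was 1.26-fold higher in antibody against AIA (0.34 ± 0.08, adjusted p = 0.0326, lost in 7 of 10 runs with 1 library left out). Ifi27 measured 220, 304, 307, 297 and 288 FPKM in control, 265, 396, 322, 316 and 289 in AIA and 368, 366, 402, 403 and 457 under the antibody. Only AIA replicate 13 reached the antibody range. Ifi27 was 1.43-fold higher in antibody against control (0.51 ± 0.13, adjusted p = 0.023, lost in 3 of 10 runs with 1 library left out). Ifi35, Ifi44 and Helz2 were not called in any comparison.

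**Figure D3:**
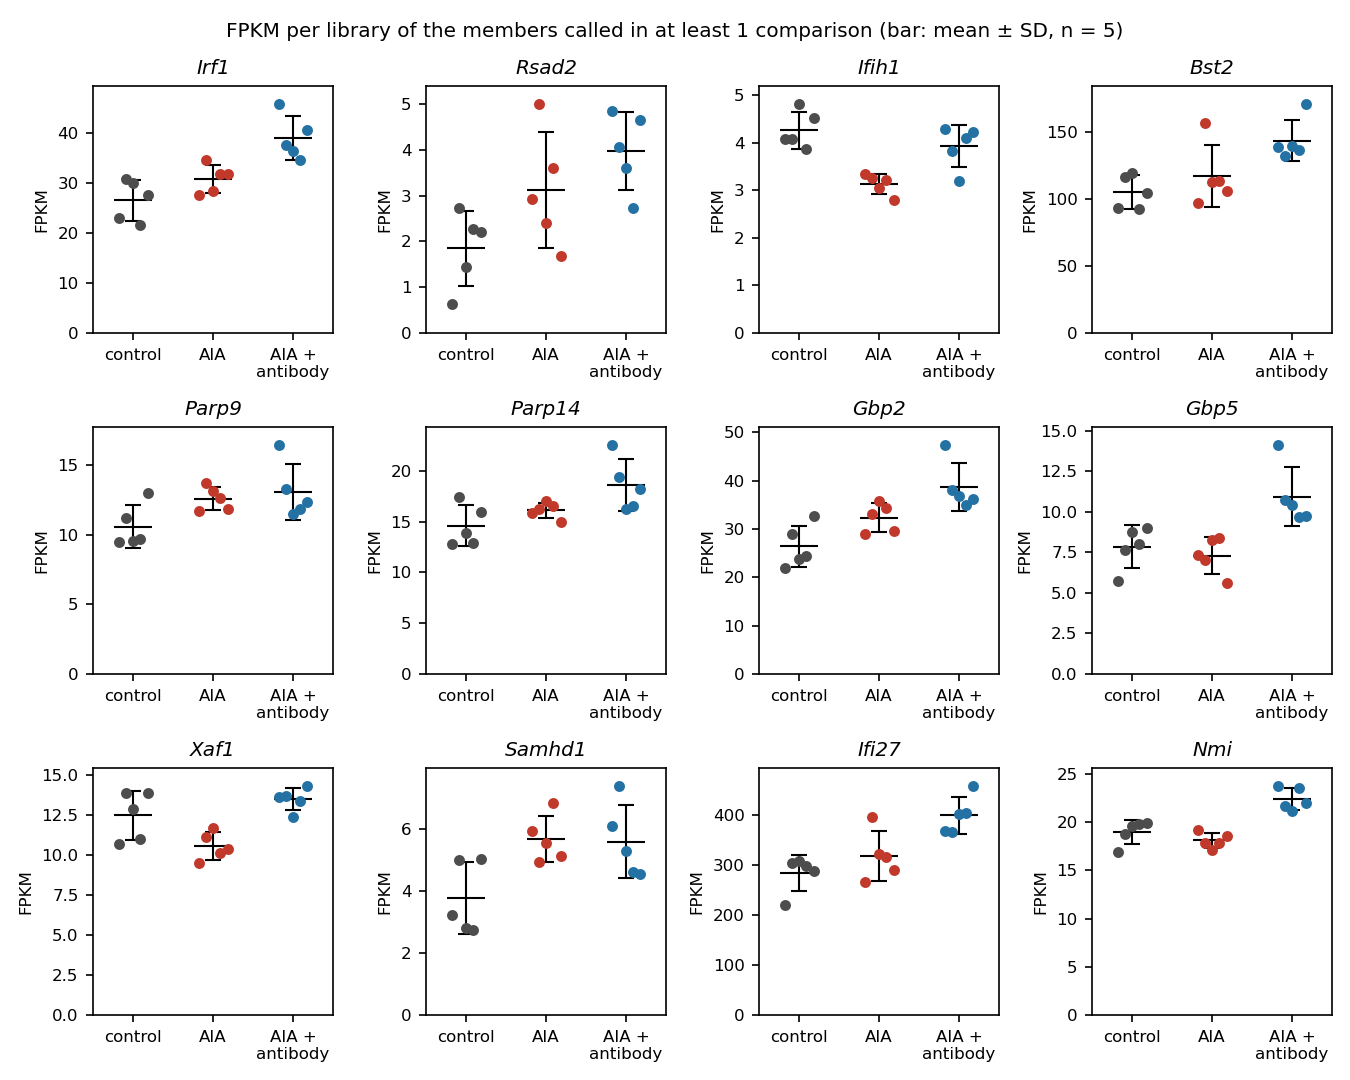
FPKM of the 12 members called in at least 1 comparison, 1 point per library with the group mean and SD (n = 5); axes start at 0. For Irf1, Gbp2, Gbp5, Bst2, Ifi27 and Nmi all 5 antibody libraries lie above all 5 control libraries, and for Ifih1 all 5 AIA libraries lie below them.

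The members differed in the size of their spread within groups. Spread within groups was largest for Mx1 (pooled SD 0.635 on the log2 CPM scale), Rsad2 (0.613), Zbp1 (0.575), Isg15 (0.512) and Mx2 (0.482). The median SD of the members was 0.216, 0.229 and 0.192 in control, AIA and antibody, against 0.203, 0.248 and 0.205 over all tested genes. Control replicate 7 was the highest control library for 19 of 37 members and AIA replicate 13 the highest AIA library for 19 of 37. Control replicate 2 was the lowest control library for 23, AIA replicate 23 the lowest of AIA for 18, and antibody replicate 12 the lowest of its group for 19. Antibody replicates 21_8 and 3 were the highest for 16 and 13. Single libraries were thus extreme for many members at once. The members come from the same rats, so their signs and calls are not separate observations. The mean log2 CPM of the members relative to control ran from -0.294 to 0.258 in control, from -0.274 to 0.294 in AIA and from 0.129 to 0.453 under the antibody. Without control replicate 7 and AIA replicate 13, 14 members were called higher in antibody against AIA, and calls higher over all genes went from 294 to 664. These libraries were picked as the highest of their groups after seeing these values. Leaving out AIA replicate 13 lowers the AIA level of many members by that choice, so no conclusion is drawn from the larger count.

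Replicates 7 and 13 were also the highest of their groups for neutrophil and erythroid markers. The neutrophil score was 1.78 in control replicate 7, against -1.16 to 0.706 in the other control libraries, and 4.15 in AIA replicate 13, against 2.3 to 3.88 in the other AIA libraries. The erythroid score was 0.781 and 3.37 in these libraries, the highest of control and AIA. Some other libraries shared this order and some did not. Control replicate 2 and AIA replicate 23 had the lowest neutrophil score (-1.16 and 2.3) of their groups. Their mean log2 CPM of the members was also the lowest (-0.294 and -0.274). Antibody replicate 21_8 had the highest mean log2 CPM of the members in its group (0.453) and the lowest neutrophil score (1.9). AIA replicate 19 had neutrophil and erythroid scores of 3.88 and 2.53, and its member value was the AIA median (0.039). The part of blood cells in the member levels was not tested. Control replicate 2, the lowest of its group, was 1 of the 2 libraries with muscle transcripts. The other, AIA replicate 19, was the lowest of its group for 3 of 37 members. Without both of these libraries 2 members were called higher in antibody against control, 1 in antibody against AIA and 0 in AIA against control. Over all genes, calls higher went from 543, 294 and 817 to 277, 46 and 334 in the same order. Without control replicate 2 alone, 2 members were called higher in antibody against control. The part of muscle in the member levels was not tested.

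**Figure D4:**
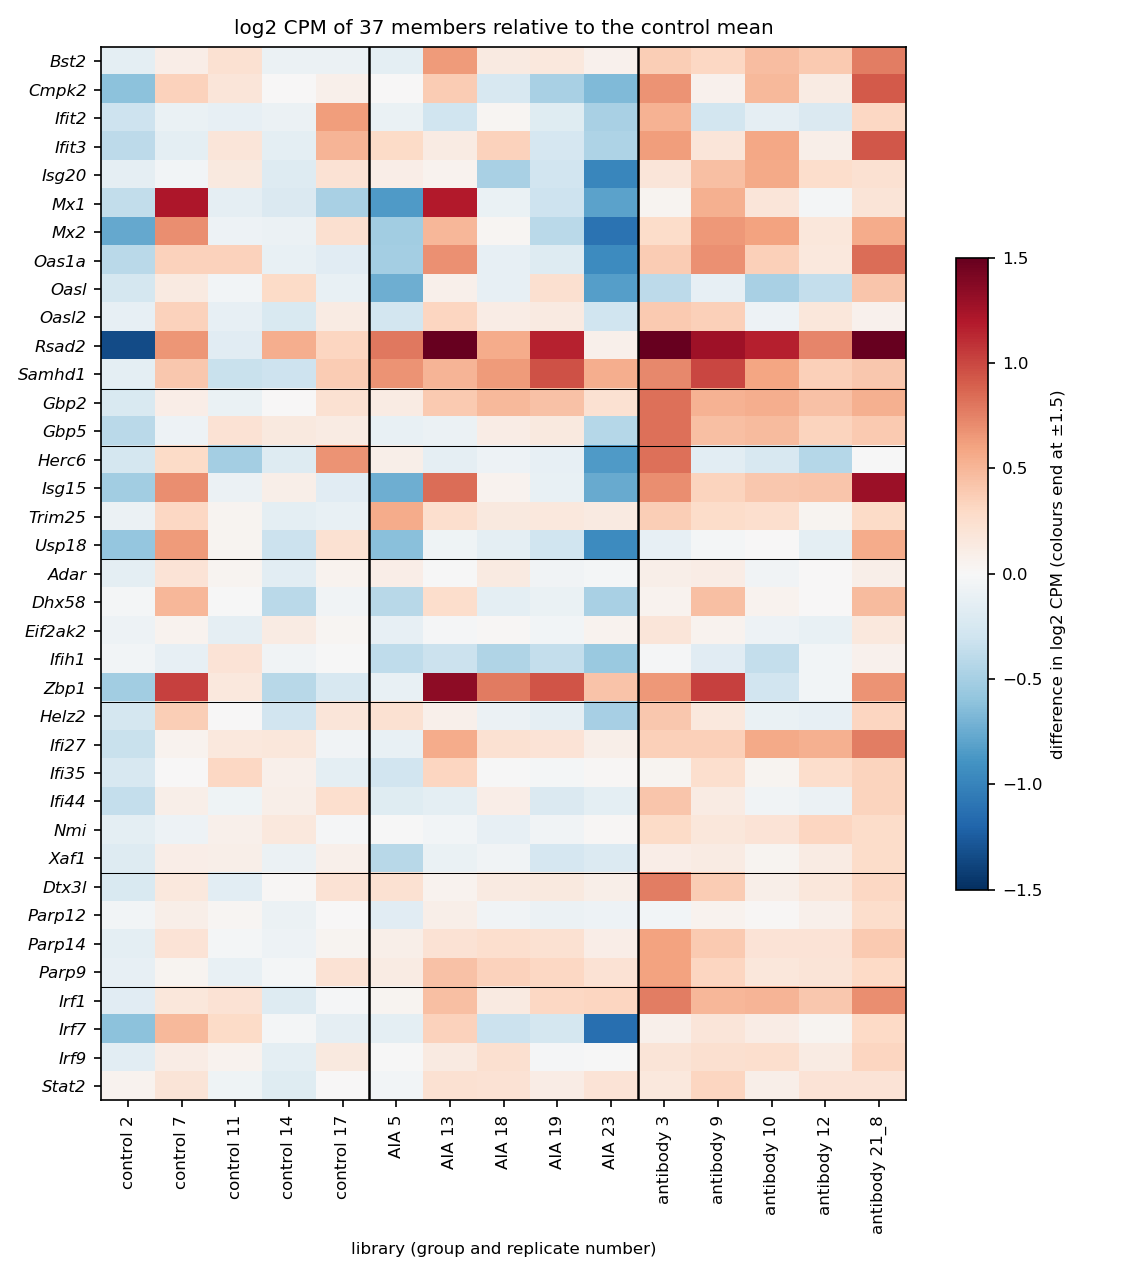
Log2 CPM of the 37 tested members in each library relative to the control mean, with red higher and blue lower and lines between groups and roles. Control replicate 7 and AIA replicate 13 are redder than their groups for Mx1, Mx2 and Isg15, and the antibody libraries are mostly red across the roles.

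Transcripts of interferons themselves were nearly absent. Of 14 ligand symbols 4 were in the table and none was tested. Ifna1 had 3 reads over the 15 libraries, Ifnb1 1, Ifne 1 and Ifng 3, with at most 1 in any library, so differences between groups were not detectable at this depth. Of the 10 genes on the list of interferon receptors and their signalling, edgeR called 0 in any comparison, against 4, 3 and 5 at an unadjusted p under 0.05 in AIA against control, antibody against AIA and antibody against control. DESeq2 called 1 higher and 1 lower in antibody against control and none elsewhere. Ifngr1 had the highest level of the receptors, at 98.8 ± 14.1, 106 ± 11.7 and 94.2 ± 10.2 FPKM.

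Sensors upstream of interferon included genes that were lower under the antibody. Of 15 tested genes of nucleic acid sensing, 4 were lower and 0 higher in antibody against AIA: Tlr9 (-2.03 ± 0.42), Tlr7 (-1.01 ± 0.17), the cyclic dinucleotide sensor Sting1 (-0.62 ± 0.14) and Unc93b1 (-0.58 ± 0.16), which carries endosomal Toll-like receptors. Over all genes 3.99% were called lower there, and the median of this list was -0.24. In AIA against control, Tlr9 (1.86 ± 0.42) and the adaptor Myd88 (0.36 ± 0.08) were higher and 0 lower. In antibody against control, Sting1 (-0.53 ± 0.14) and Tlr8 (-0.58 ± 0.16) were lower. Tlr9 was low throughout, at a mean of 0.11, 0.393 and 0.0975 FPKM in control, AIA and antibody.

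Targets tied mainly to interferon gamma included 2 genes called higher in all 3 comparisons, Ubd and Tap1. Of 22 tested, AIA against control gave 8 higher and 0 lower (all genes: 5.09% and 3.45%). Antibody against AIA gave 4 and 1 (1.83% and 3.99%), and antibody against control 10 and 0 (3.38% and 4.66%). The medians of the list were 0.39, 0.29 and 0.47 in the same order. Ubd, a ubiquitin-like modifier, was at 0.289 ± 0.227 FPKM in control, 10.5 ± 2.55 in AIA and 28.4 ± 7.04 under the antibody, and was called in all 3 comparisons (adjusted p = 1.25e-05, 0.0204 and 7.43e-07). Tap1, which carries peptides to MHC class I, was at 19.8 ± 1.61, 24.6 ± 2.2 and 31.1 ± 2.97 FPKM and was also called in all 3 (0.34 ± 0.09, 0.33 ± 0.09 and 0.67 ± 0.09). The chemokine Cxcl10 (1.28 ± 0.37), the adhesion molecule Icam1 (0.85 ± 0.13) and a further guanylate-binding protein, Gbp7 (0.77 ± 0.20), were higher in antibody against control. The GTPases Igtp (0.49 ± 0.10) and Irgm (0.37 ± 0.09) were higher in antibody against AIA, and the IgG receptor Fcgr1a was lower (-0.82 ± 0.19). In AIA against control the class II transactivator Ciita (1.37 ± 0.29), the class II invariant chain Cd74 (1.07 ± 0.22) and the chemokines Cxcl9 (1.03 ± 0.29) and Cxcl11 (3.29 ± 0.77) were higher; these chemokines draw T cells through CXCR3. In antibody against AIA, Ciita was at -0.92 ± 0.29 and Cd74 at -0.73 ± 0.22, not called by edgeR (adjusted p = 0.0713 and 0.0604) and called lower by DESeq2 (adjusted p = 0.0178 and 0.0117). By library, the score of this list ran from -0.204 to 0.213 in control, from 0.384 to 0.915 in AIA and from 0.721 to 1.03 under the antibody. Ubd (5.21 ± 0.40 in AIA against control) and Cxcl11, both low in control, weigh heavily in this mean. A score without them was not computed.

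**Figure D5:**
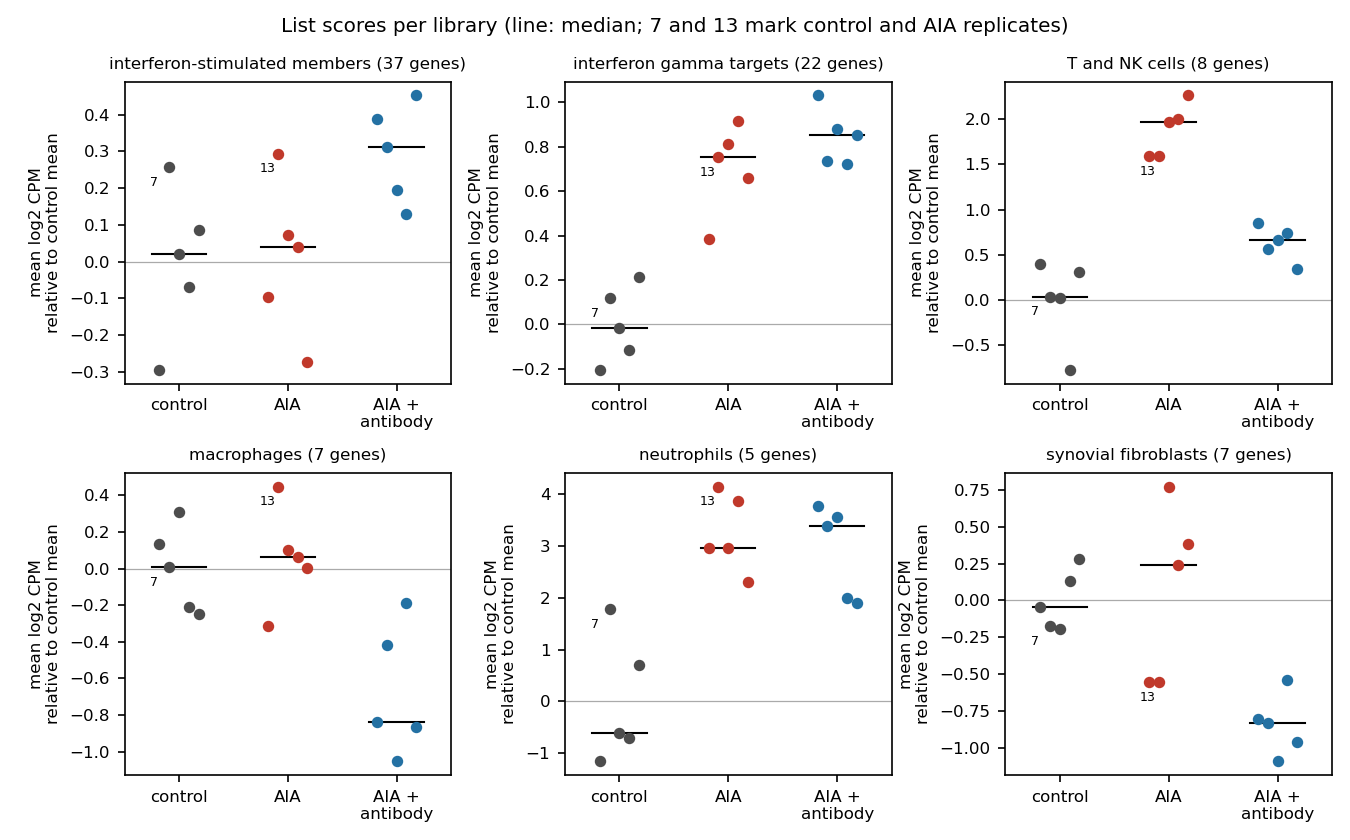
Mean log2 CPM of 6 gene lists in each library relative to the control mean, with the group median as a line; numbers mark control replicate 7 and AIA replicate 13. The members overlap between control and AIA (-0.294 to 0.258 and -0.274 to 0.294). Interferon gamma targets do not (up to 0.213 and from 0.384), in a score where Ubd and Cxcl11 weigh heavily. Macrophage and fibroblast markers are lowest in the antibody group.

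Markers of several cell types differed between the same groups. Over all genes, 5.09%, 1.83% and 3.38% were called higher in AIA against control, antibody against AIA and antibody against control. Called lower were 3.45%, 3.99% and 4.66%. Of 8 tested T and NK markers, 6 were higher in AIA against control, 4 lower in antibody against AIA, and 1 higher (Nkg7) and 1 lower (Cd4) in antibody against control. The summed T and NK level ran from 91.6 to 131 FPKM in control, from 75.3 to 113 in AIA and from 47.6 to 93 under the antibody. Most of this sum was Cd4 (means of 104, 83.8 and 59.6 FPKM), which macrophages also express, so it says little about T and NK cells. The T and NK score, which weighs each marker equally, ran from -0.771 to 0.403 in control, from 1.59 to 2.26 in AIA and from 0.341 to 0.852 under the antibody. Cd3d was at 0 in 1 control library. Of 7 macrophage markers, 4 were lower in antibody against AIA (Cd68, Mrc1, Adgre1 and C1qa). In AIA against control Adgre1 was higher and 0 were lower. In antibody against control 4 were lower and 0 higher, with a median log2 fold change of -0.73. Their sums were 481 to 705, 380 to 660 and 245 to 460 FPKM in control, AIA and antibody, with no marker at 0. Of 7 synovial fibroblast markers, 5 were lower in antibody against AIA, with sums of 2220 to 2860, 1600 to 3820 and 1140 to 1580. In AIA against control Col1a1 was higher, and Prg4 and Clic5 were lower. In antibody against control 4 were lower and 0 higher (median -0.91). Of 5 tested B and plasma cell markers, 2 were lower and 0 higher in antibody against control. Of 4 endothelial markers, Pecam1 and Sele were higher in AIA and in the antibody group than in control, and 0 were called in antibody against AIA. The endothelial sums were 228 to 314, 292 to 369 and 328 to 461. Of 5 neutrophil markers, 4 were higher in AIA and in the antibody group than in control, with sums of 4.78 to 36.4, 37.8 to 231 and 32.9 to 260. The tissue also held fat, with Adipoq at 1566 ± 249.8, 1302 ± 574.8 and 2035 ± 254.7 FPKM in control, AIA and antibody. Of 3 adipocyte markers, Lep was lower in AIA against control and higher in antibody against AIA, where all 3 had positive log2 fold changes with a median of 0.63. Their sums were 1570 to 2470, 943 to 2780 and 2590 to 3360 FPKM, with none at 0. Siglech, which marks plasmacytoid dendritic cells, the main source of type I interferon, was at a mean of 0.014, 0.259 and 0.0735 FPKM in control, AIA and antibody, was called higher in AIA against control and was at 0 in some control libraries. Of the 5 markers of these cells, AIA against control also called Irf8 higher, and antibody against control called Il3ra and the member Bst2. The sums without Bst2 were 25.3 to 33.9, 31.8 to 36.6 and 32.5 to 34.8 FPKM. The largest part of these sums was Il3ra (means of 16.3, 18.4 and 20.5 FPKM). Siglech was at most 0.445 FPKM in any library and adds almost nothing to them. The part of these shifts in the member levels was not tested.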

How the data were processed

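Gene expression was measured by RNA-seq in synovial tissue of 15 rats, grouped by sample title. Per the labels' protocols, libraries were made with a SMARTER mRNA kit from 1.3 ug of RNA. The authors deposited raw counts per gene symbol, which were used for all tests, and FPKM. The deposited FPKM equal count over a fixed gene length and library total within 0.1% for 100% of 291027 values with a count, and are printed as levels. No aligner or counter is named in the sources used here. GRCm38 and mm10, both mouse builds, appear in the submitters' processing notes, so no coordinates are tied to the counts. Reads of close relatives may be split between them (Ifit1 and Ifit1bl, Mx1 and Mx2, Oas1a and other Oas1 genes, Oasl and Oasl2, Gbp2 and Gbp5, Ifi27 and Ifi27l2b), and these genes are uncertain to that extent.

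The counts were tested with edgeR 4.0.16 in R 4.3.3: filterByExpr (16046 genes kept, 7296 removed), TMM factors, 1 fit over the 3 groups with no covariate, the quasi-likelihood F test and Benjamini-Hochberg adjustment over all tested genes. Calls required an adjusted p under 0.05. Fold changes are log2 with the SE implied by the F statistic. Log2 CPM use a prior count of 2. Counts of genes whose groups do not overlap used log2 CPM after TMM scaling, on which all AIA libraries are above control for Samhd1 although their FPKM touch. Where single libraries of a gene are compared beside their FPKM, the order is that of FPKM and can differ on log2 CPM. List scores average log2 CPM, centred on control, over the tested genes of each list, with members left out of other lists. DESeq2 1.42.0, RLE factors, no filter, 2-group fits and left-out libraries were tried. The test was checked on simulated counts. P-values measure spread between libraries, each taken as 1 rat; the labels name no batch. Totals of 31172215 to 34084345 counts limit precision for low genes such as Zbp1 and Ifit1.

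The members, the other gene lists and the alternatives were chosen with earlier results of these data known. By the rule for named genes, every library is printed for members called in a comparison (at most 14) and the 3 of highest FPKM. Of each other list, up to 5 called genes of largest absolute log2 fold change per comparison are named, or, where none is called, the 2 of highest level; interferons, their receptors and Angptl4 may be named whatever they do. The library values of Mx1, Isg15 and Isg20, and the level of Prg4, were chosen after their values were seen. One gene of the receptor list is not reported here.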

Additional observations from a re-analysis of the deposited data

Results flagged for a closer look

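Within the groups of 5 libraries, 8 of 111 combinations of a tested member and a group had 1 library set apart from the other four by more than Dixon's 95% limit on the log2 CPM scale. Chance alone flags about 1 in 20 such groups. Ifit2 was at 6.43 log2 CPM in control replicate 17, above the next library at 5.71. Mx1 was at 5.517 log2 CPM in control replicate 7, above the next library at 4.171. Ifi44 was at 5.229 log2 CPM in AIA replicate 18, above the next library at 4.981. Usp18 was at 4.087 log2 CPM in antibody replicate 21_8, above the next library at 3.537. Herc6 was at 3.151 log2 CPM in AIA replicate 23, below the next library at 3.868. Trim25 was at 5.77 log2 CPM in AIA replicate 5, above the next library at 5.461. Gbp2 was at 6.779 log2 CPM in antibody replicate 3, above the next library at 6.501. Gbp5 was at 5.241 log2 CPM in antibody replicate 3, above the next library at 4.892. Gbp2 and Gbp5 were both highest in antibody replicate 3, and without that library Gbp2 stayed called in antibody against control while Gbp5 did not; Gbp5 stayed called in antibody against AIA.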

How the results depend on the processing

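No paired analysis was possible because the groups have no replicate number in common. For AIA against control, the count of members called higher, 1, was 2 with RLE factors, 3 with DESeq2, 2 with no filter on low counts, 0 in the fit on the 2 groups alone, 0 without control replicate 2 and AIA replicate 19 together, and 0 to 3 with 1 library left out; 1 member was lower in each of these. For antibody against AIA, the 3 members called higher became 7 with DESeq2, 0 in the 2-group fit, 1 without control replicate 2 and AIA replicate 19, 14 without control replicate 7 and AIA replicate 13 (chosen after seeing the data), and 0 to 12 with 1 library left out. For antibody against control, 10 became 2 without control replicate 2 and AIA replicate 19 and 2 to 8 with 1 library left out. No member was called lower in either comparison of the antibody group under any of these. Over all genes, AIA against control gave 817 higher and 553 lower, which became 532 higher in the 2-group fit, 334 and 238 without control replicate 2 and AIA replicate 19, and 522 to 1147 and 369 to 796 with 1 library left out. Antibody against AIA gave 294 and 641, which became 659 and 1199 with DESeq2, 35 and 77 in the 2-group fit, 46 and 174 without control replicate 2 and AIA replicate 19, 664 and 1045 without control replicate 7 and AIA replicate 13, and 48 to 754 and 139 to 1278 with 1 library left out. Antibody against control gave 543 and 748, which became 911 higher with DESeq2, 277 and 480 without control replicate 2 and AIA replicate 19, and 288 to 510 and 407 to 802 with 1 library left out. No called member changed sign under any alternative, and the cause of the changed counts was not tested beyond the fewer samples in those fits.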

Other observations

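A further list of 59 tested interferon-stimulated genes was tested too. In AIA against control, 4 were higher and 1 lower, with Ifitm1, which bars virus entry at membranes (log2 fold change 1.77 ± 0.29), Phf11b (1.15 ± 0.31), Slfn13, a ribonuclease whose reads may be shared with other Schlafen genes (0.79 ± 0.11), and Apol3 (0.40 ± 0.12) higher and Apol9a lower (-0.44 ± 0.13). In antibody against AIA, 1 was higher (Irgm2, 0.47 ± 0.10) and 2 lower (Ifitm1, -1.09 ± 0.28, and Slfn13, -0.84 ± 0.11). In antibody against control, 6 were higher and 1 lower, among them Ifitm10 (0.66 ± 0.18), Apol3 (0.64 ± 0.12), Irgm2 (0.53 ± 0.10), Trafd1, a brake on innate signalling (0.44 ± 0.11), and, lower, Epsti1 (-0.63 ± 0.18). The medians were 0.06, 0.11 and 0.21, and the shares of all genes called are those given for the members.

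Of 12 feedback regulators, AIA against control gave 3 higher and 0 lower by edgeR (all genes: 5.09% and 3.45%), antibody against AIA gave 1 and 1 (1.83% and 3.99%), and antibody against control gave 1 and 0 (3.38% and 4.66%). Nlrc5, which also activates MHC class I genes, was called higher in all 3 comparisons (0.36 ± 0.10, 0.45 ± 0.10 and 0.81 ± 0.10), with 1.56 ± 0.285, 1.96 ± 0.177 and 2.7 ± 0.346 FPKM in control, AIA and antibody. Socs3, an inhibitor of cytokine receptor signalling, and Nlrc3 were higher in AIA against control (1.61 ± 0.35 and 1.42 ± 0.37). In antibody against AIA they were at -1.12 ± 0.34 and -1.13 ± 0.37, not called by edgeR (adjusted p = 0.0648 and 0.0795) and called lower by DESeq2 (adjusted p = 0.0109 and 0.0308), and the phosphatase gene Ptpn6 was lower in antibody against AIA (-0.57 ± 0.14).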
